A study of Mus musculus with 30 samples.

Results

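The 9 genes described here encode amino acid transporters that neurons use, and were chosen as a list of symbols: Slc6a15, Slc6a17, Slc38a1, Slc38a2, Slc7a5, Slc7a8, Slc7a11, Slc3a2 and Slc1a1. Each was found once among the 55335 genes of the count table, by its Ensembl identifier in GENCODE release M21. All 9 passed the filter on low counts, as did 19368 genes in all. In GENCODE coordinates on GRCm38, Slc6a15 lies at chr10:103367783-103419377 on the plus strand and Slc6a17 at chr3:107467543-107518018 on the minus strand. Slc7a5 lies at chr8:121881150-121907694, Slc7a8 at chr14:54722209-54781946, Slc7a11 at chr3:49892526-50443614 and Slc3a2 at chr19:8706882-8723369, all on the minus strand. Slc38a1 (chr15:96571418-96642913) and Slc38a2 (chr15:96687392-96699730) are minus-strand neighbours, and Slc1a1 lies at chr19:28835049-28913960 on the plus strand. All are protein-coding, and counts cover their exons. The lowest count of a member in any library was 49 (Slc7a11) and the highest was 31608 (Slc6a17).

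The RNA came from polyribosomes that were pulled down through an HA tag from the nucleus accumbens (NAc) of female mice. The tagged ribosomal protein (RiboTag, RT) was switched on by Cre in D1-Cre-RT mice, for medium spiny neurons with the D1 dopamine receptor, or in A2A-Cre-RT mice, for those with the D2 receptor, called D2 here. Mice of the Resilient and Susceptible groups went through chronic witness defeat stress (CWDS) and were sorted by their social interaction scores, and Control is the labels' name for the third group. Each class had 5 libraries per group, 30 libraries in 6 groups, all carrying Cre and the tag, each from 4 pooled mice with punches taken 24 h after the social interaction test. The labels give no ages. A level is therefore that of tagged-ribosome RNA over a pool, and fewer cells of a type and less RNA per cell cannot be told apart.

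As background, these transporters fall into several families. Slc6a15 and Slc6a17 are sodium-coupled carriers of neutral amino acids such as proline, leucine and glutamine, and the Slc6a17 protein sits on synaptic vesicles. Slc38a1 and Slc38a2 take up glutamine and other small neutral amino acids, and glutamine is a precursor of glutamate and GABA. Slc7a5, Slc7a8 and Slc7a11 are light chains that reach the membrane paired with the heavy chain encoded by Slc3a2. Slc7a5 and Slc7a8 exchange large neutral amino acids and Slc7a11 exchanges cystine for glutamate. Slc1a1 is the glutamate and cysteine carrier of neurons. Slc7a5 is also known for its place in the endothelium of brain vessels, and Slc7a11 for its expression in astrocytes. Slc38a2, Slc7a11, Slc7a5 and Slc3a2 are known targets of the amino acid response, which the factor ATF4 drives.

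Promoter sequence was available for 6 of the 9 genes (7 windows), from RefSeq on GRCm38.p6. Slc6a15, Slc7a5 and Slc38a1 were not in that table. The 2 promoters below are shown because their genes are classical targets of the amino acid response. The choice also rested on Slc7a11 having the largest class difference of the 9 genes in these data. Each is the 250 bases before the annotated start, on the minus strand, written 5′ to 3′.
Slc7a11 (chr3:50443614-50443863): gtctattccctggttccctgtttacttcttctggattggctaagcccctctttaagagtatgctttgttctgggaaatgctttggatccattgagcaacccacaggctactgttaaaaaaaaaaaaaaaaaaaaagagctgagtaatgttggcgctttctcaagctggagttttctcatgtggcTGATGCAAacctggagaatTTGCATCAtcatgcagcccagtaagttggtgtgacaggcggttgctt
Slc38a2 (chr15:96699729-96699978): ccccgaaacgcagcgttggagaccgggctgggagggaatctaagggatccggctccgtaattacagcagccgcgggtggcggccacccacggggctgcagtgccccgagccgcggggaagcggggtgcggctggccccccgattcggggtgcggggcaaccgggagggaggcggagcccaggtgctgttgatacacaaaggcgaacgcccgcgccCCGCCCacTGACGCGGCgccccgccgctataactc
The capitals mark matches to 3 motifs searched on both strands. These were the core of the amino acid response element, TTGCATCA, the core of the antioxidant response element, TGACNNNGC, and the GC box, GGGCGG. The Slc7a11 promoter held TTGCATCA in both orientations, at bases 66 to 59 and 47 to 40 before the start. That motif was in 260 of 32851 windows of the same length, or 0.791%. The Slc38a2 promoter held TGACNNNGC at bases 27 to 19 before the start and a GC box at bases 35 to 30, motifs found in 10.2% and 32.7% of windows. This Slc38a2 window held no TTGCATCA on either strand. The windows of Slc7a8, Slc3a2 and Slc1a1 held a GC box and neither other motif. A match is a description of the letters and was not tested as a binding site.

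The libraries held 28996168 to 65882152 counts on genes. D2 Susceptible replicates 1 and 2 stood apart, with 15822 and 16525 genes detected against 19440 to 22375 in the other 28. In D1 Susceptible replicate 1, 54.9% of the counts fell on 1 gene, Gm42418. The 5 markers of D1 neurons (Drd1, Pdyn, Tac1, Chrm4 and Isl1) summed to 1597 to 2402 CPM (counts per 1000000 gene counts of the library, scaled by TMM) in D1 libraries and 251 to 1710 in D2 libraries. The 5 markers of D2 neurons (Drd2, Adora2a, Penk, Gpr6 and Sp9) summed to 4867 to 12799 CPM in D2 libraries and 1120 to 2771 in D1 libraries. D2 Resilient replicate 5 was the D2 library with the highest D1 sum and the lowest D2 sum. Values with and without these libraries are given where they move a result.

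The level of each gene, compared between genes per length of its merged exons, spanned a wide range. Slc6a17 was the highest, at a median of 38.1 FPKM (CPM per 1000 bases of exon) over 30 libraries, and lay above the next gene in all 30. Slc3a2, the shared heavy chain, followed at 18.9, and it was above Slc1a1 in 28 libraries. Slc1a1 had 14.6 and Slc7a8 13.2, with Slc1a1 the higher in 20 libraries, so these neighbours were not separated by their spread. Slc38a1 (9.62), Slc6a15 (8.12) and Slc7a5 (6.05) came next. Slc38a1 was above Slc6a15 in 26 libraries, and Slc6a15 above Slc7a5 in 19. Slc38a2 had 4.53 FPKM and lay below Slc7a5 in 22 libraries. Slc7a11 was far below the rest at 0.32 FPKM, and no library had it at the level of Slc38a2. Between Slc6a17 at the top and Slc7a11 at the bottom, the order depends on the length used. With the longest transcript in place of merged exons, Slc1a1 (31.7 FPKM) came before Slc3a2 (23.7). Slc38a1 (22.8) and Slc6a15 (17.5) then came before Slc7a8 (16.1), and Slc38a2 (6.54) before Slc7a5.

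**Figure D1:**
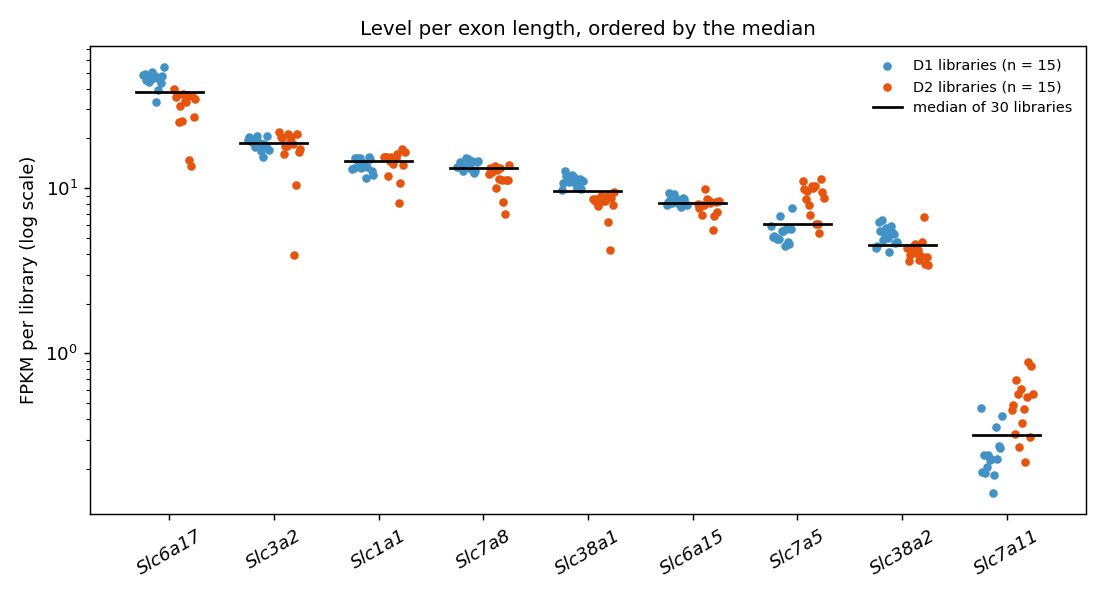
Level per exon length of the 9 genes in FPKM on a log scale, 1 point per library (15 D1 in blue, 15 D2 in orange) and a line at the median of 30. Slc6a17 is at the top with a median of 38.1, Slc7a11 at the bottom with 0.32, and the low orange points in several genes are D2 Susceptible replicates 1 and 2.

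The genes differed in how steady they were between libraries. In D1 Control, the coefficient of variation was 2.98% for Slc3a2, 4.74% for Slc6a17 and 45.4% for Slc7a11. For Slc7a11, the gene with the fewest counts, D1 Control replicate 1 had 6.47 CPM and the next library 3.37 CPM. In D1 Resilient the coefficient of Slc7a11 was 19.9%. In D2 Susceptible the coefficient was 48.6% for Slc3a2 and 42.5% for Slc6a17, and Slc6a15 had the lowest there, 15.8%. The 2 libraries that stood apart held the extreme values of most genes. Slc6a17 averaged 146 CPM in D2 Susceptible replicates 1 and 2 and 335 in replicates 3 to 5. Slc3a2 averaged 25.5 against 64.7 CPM, Slc38a1 90.0 against 149.7, and Slc7a8 38.0 against 60.5. Slc38a2 went the other way, at 50.6 against 31.6 CPM.

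**Figure D2:**
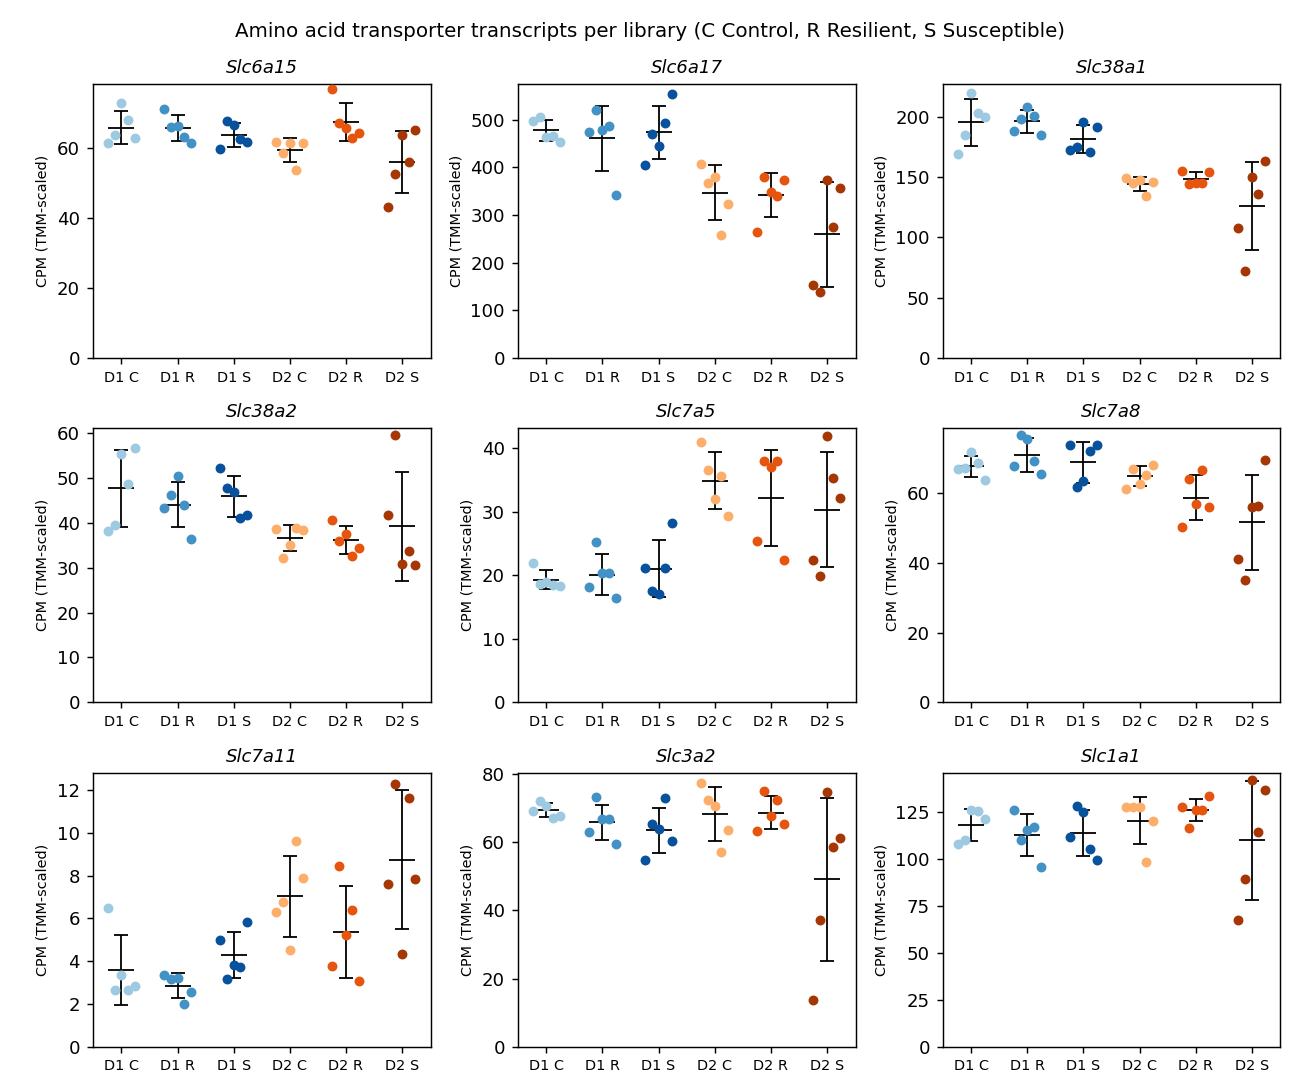
CPM of each gene in every library, by group, with the mean and SD (n = 5 libraries per group). Slc7a5 and Slc7a11 sit higher in the D2 groups, Slc6a17 and Slc38a1 higher in the D1 groups, and the widest bars of Slc6a17, Slc3a2 and Slc38a1 are those of D2 Susceptible.

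The first question was which transporters differed between the cell classes. Over the 3 conditions together, 6 of the 9 genes differed (adjusted p under 0.05 by edgeR's quasi-likelihood test, Benjamini-Hochberg over all genes), against 29.3% of all genes tested. Slc6a17, Slc38a1, Slc38a2 and Slc7a8 were higher in D1, and Slc7a5 and Slc7a11 were lower. Of all genes, 13.8% were called higher in D1 and 15.5% lower. The median log2 difference of the 9 was 0.11, and that of all genes was 0.00. These 6 calls held under every alternative setting run, the 30 fits without 1 library included. The classes also differ as mouse lines, D1-Cre-RT against A2A-Cre-RT, and the 2 cannot be told apart.

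The vesicular carrier Slc6a17 was higher in D1 by 0.59 on the log2 scale (SE 0.11, adjusted p = 0.00013 by edgeR). In Control libraries it had 498, 505, 464, 466 and 454 CPM in D1 and 408, 368, 379, 257 and 324 CPM in D2. Every D1 Control value was above every D2 Control value. The difference within Control was 0.46 (SE 0.19, adjusted p = 0.15), which did not pass the test. In Resilient the difference was 0.43 (adjusted p = 0.24). With only the groups compared it passed in both (adjusted p = 0.0087 and 0.020), as it did by voom (0.0034 and 0.0012). Without the 4 libraries that stood apart the Resilient difference was 0.46 (adjusted p = 0.0098). It passed in Susceptible in the fit of all groups, at 0.87 (adjusted p = 0.0018), and there it was 0.52 (adjusted p = 0.012) without D2 Susceptible replicates 1 and 2. With only the groups compared, the Susceptible call was lost (0.87, adjusted p = 0.066 by edgeR). Slc6a15, a relative of Slc6a17, did not pass, at 0.10 over the 3 conditions (SE 0.050, adjusted p = 0.15). It was called, at 0.13, without D2 Susceptible replicate 3 (adjusted p = 0.040) or replicate 5 (adjusted p = 0.035). Without D2 Susceptible replicates 1 and 2 it was 0.07 and was not called (adjusted p = 0.23 by edgeR).

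The glutamine carrier Slc38a1 was higher in D1 by 0.45 (SE 0.071, adjusted p = 8.05e-06 by edgeR). In Control libraries it had 169, 184, 219.9, 203 and 199.7 CPM in D1 and 149, 145, 147, 134 and 146 CPM in D2. The groups did not overlap in Control, nor in Resilient (185 to 208 against 144 to 155 CPM), nor in Susceptible (171 to 196 against 72.4 to 163 CPM). The difference was 0.44, 0.40 and 0.52 in Control, Resilient and Susceptible, and it passed the test in each (adjusted p = 0.021, 0.041 and 0.0027). The Susceptible difference was 0.30 (adjusted p = 0.012) without D2 Susceptible replicates 1 and 2. With only the groups compared, the Susceptible call was lost (0.53, adjusted p = 0.10 by edgeR). The Control call was lost without D1 Control replicate 3 (adjusted p = 0.065) or D2 Control replicate 4 (0.053). The Resilient call was lost in 7 of the 10 fits without 1 of its libraries, at adjusted p = 0.062 to 0.076. Slc38a2, the nutrient-regulated member of the family, was higher in D1 by 0.30 over the conditions (SE 0.081, adjusted p = 0.0056). Within Control it had 38.2, 39.5, 55.4, 48.7 and 56.6 CPM in D1 and 38.5, 32.1, 35.1, 38.7 and 38.4 CPM in D2. These groups overlapped, and the difference of 0.38 did not pass (adjusted p = 0.094). It was called by voom (adjusted p = 4.88e-05), with only the groups compared (0.032) and without D1 Control replicate 1 (0.038). In Susceptible it was 0.23 (adjusted p = 0.25), and 0.56 (adjusted p = 0.0012) without D2 Susceptible replicates 1 and 2.

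The light chain Slc7a5 was lower in D1 by 0.69 (SE 0.10, adjusted p = 3.31e-06 by edgeR). In Control it had 21.9, 18.7, 19.0, 18.5 and 18.3 CPM in D1 and 41.1, 36.6, 31.98, 35.6 and 29.3 CPM in D2. All D2 Control libraries were above all D1 Control libraries. The log2 difference was -0.85 in Control (adjusted p = 0.0014), -0.68 in Resilient (0.012) and -0.53 in Susceptible (0.027). The Control call held in all 10 fits without 1 of its libraries. The Resilient call was lost without D1 Resilient replicate 5 or D2 Resilient replicate 2, 3 or 4 (adjusted p = 0.052 to 0.057). The Susceptible call was lost without D1 Susceptible replicate 2, 3 or 4 or D2 Susceptible replicate 3 or 4 (adjusted p = 0.056 to 0.11). Without D2 Susceptible replicates 1 and 2 the Susceptible difference was -0.77 (adjusted p = 0.0016). With only the groups compared, the Susceptible call was lost (-0.52, adjusted p = 0.17 by edgeR).

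The cystine exchanger Slc7a11 had the largest difference of the 9, lower in D1 by 0.97 (SE 0.17, adjusted p = 5.06e-05 by edgeR), at low counts. In Control it had 6.47, 2.66, 3.37, 2.64 and 2.84 CPM in D1 and 6.31, 6.79, 4.54, 9.63 and 7.89 CPM in D2. D1 Control replicate 1 lay within the range of the D2 libraries, and the other 4 were below it. The Control difference was -0.96 (adjusted p = 0.036), and -0.81 to -1.28 in the 10 fits without 1 of its libraries. The call was lost in 8 of them, at adjusted p = 0.055 to 0.14. It was also lost without the filter on low counts (adjusted p = 0.054). In Resilient it was -0.91 (adjusted p = 0.059). It was called there by DESeq2 (adjusted p = 0.029), by voom (0.0022) and with only the groups compared (0.022). It was also called without D2 Resilient replicate 5 (-1.04, adjusted p = 0.026), without D2 Resilient replicate 1 (-1.02, 0.049) and without the 4 libraries that stood apart (-1.07, 0.011). In Susceptible it was -1.03 (adjusted p = 0.012), or -0.87 (adjusted p = 0.080) without D2 Susceptible replicates 1 and 2. With only the groups compared, the Susceptible call was lost (-1.02, adjusted p = 0.069 by edgeR). These values belong to the gene whose promoter, printed above, held the TTGCATCA motif in both orientations. A link between the motif and the class difference was not tested.

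Slc7a8 was higher in D1 by 0.25 over the conditions (SE 0.067, adjusted p = 0.0050), but its Control difference of 0.06 (SE 0.12) did not pass, with 67.5 ± 2.94 CPM in D1 and 64.7 ± 2.82 CPM in D2 (SD, n = 5 each). Its Susceptible difference of 0.41 (adjusted p = 0.010) was 0.21 (adjusted p = 0.16) without D2 Susceptible replicates 1 and 2. With only the groups compared, the Susceptible call was lost (0.42, adjusted p = 0.15 by edgeR). In Resilient the difference was 0.27 (adjusted p = 0.21), and was called by voom (0.011) and with only the groups compared (0.048). The heavy chain Slc3a2 did not pass in any condition. Its Susceptible difference of 0.37 (adjusted p = 0.23) was 0.59 (adjusted p = 0.037) without D2 Susceptible replicate 3. Without D2 Susceptible replicates 1 and 2 that difference was -0.0037 (adjusted p = 0.99 by edgeR). In Control Slc3a2 had 69.2 ± 2.06 CPM in D1 and 68.1 ± 7.89 CPM in D2 (SD, n = 5 each), a log2 difference of 0.02 (SE 0.22). The glutamate carrier Slc1a1 had 118 ± 8.503 and 120 ± 12.6 CPM there, and a difference of -0.02 (SE 0.13). Its merged exons share 31.9% of their bases with 4430402I18Rik on the other strand. The strand setting of the counting is not given in the sources used here, so reads of these 2 genes may not have been told apart. The other 8 genes share no exon bases with another gene.

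**Figure D3:**
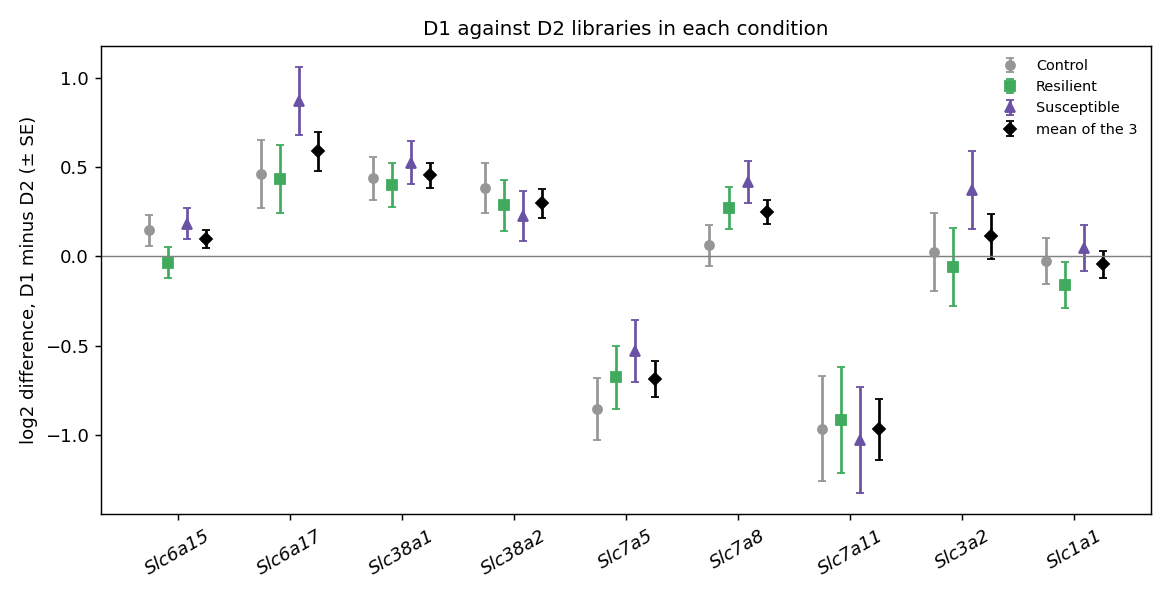
Difference between D1 and D2 libraries on the log2 scale, with its standard error, in Control, Resilient and Susceptible and as the mean of the 3. Slc6a17 and Slc38a1 are above 0 and Slc7a5 and Slc7a11 below 0 in all 3 conditions, while Slc3a2 in Susceptible is at 0.37 with a wide error (SE 0.22).

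By condition, 3 of the 9 genes were called in Control, against 8.30% of all genes, 2 in Resilient, against 6.65%, and 5 in Susceptible, against 23.9%. Groups did not overlap for 3 of the 9 genes in Control (Slc6a17, Slc38a1 and Slc7a5), against 11.7% of all genes. They did not overlap for 1 gene in Resilient, Slc38a1, against 9.70%, and for 2 in Susceptible, Slc6a17 and Slc38a1, against 8.92%. Without D2 Susceptible replicates 1 and 2 there were 4 calls in Susceptible, Slc6a17, Slc38a1 and Slc38a2 higher in D1 and Slc7a5 lower. Over all genes, 2123 were called in that fit, against 4621 with all libraries. Fitted on the groups compared alone, the calls were 5 in Control, 5 in Resilient and 0 in Susceptible. The calls over all genes moved too, to 2696, 2184 and 915, from 1608, 1288 and 4621 in the fit of all groups. Without the 4 libraries that stood apart, D2 Resilient replicate 5 among them, 4 of the 9 genes were called in Resilient. Over all genes, 2551 were called in that fit.

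Because the 3 light chains among the members share a heavy chain, their shares of their summed level per length of merged exons were also described. Slc7a5 made up 27.4% ± 1.55 of the 3 light chains in D1 Control and 41.1% ± 3.86 in D2 Control (SD, n = 5 each). The Slc7a8 share was 71.2% ± 2.07 and 56.7% ± 3.71, and Slc7a11 made up 1.35% and 2.21%. The Slc7a5 share was 27.3% in D1 Resilient and 28.5% in D1 Susceptible. It was 41.4% in D2 Resilient and 42.5% in D2 Susceptible. No D1 library was above 33.6% and no D2 library below 34.7%. These 3 light chains summed to 0.97 ± 0.043 of the heavy chain's level in D1 Control and 1.20 ± 0.15 in D2 Control. The shares and the ratio cover these 3 genes only, not all partners of the heavy chain, and depend on the length used. In D2 Susceptible the ratio was 1.75 ± 1.14, with D2 Susceptible replicate 1 at 3.78, where Slc3a2 was at 13.9 CPM.

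Markers of other cell types moved with the class. All 6 endothelial markers were lower in D1 than in D2 over the conditions, and their summed level was 11.6 to 35.1 CPM in D1 libraries and 53.3 to 318 CPM in D2 libraries. All 5 mural markers were also lower in D1 (7.84 to 32.8 against 88.0 to 248 CPM), as were all 6 astrocyte markers (28.0 to 103 against 43.8 to 193 CPM). The 6 oligodendrocyte markers were lower in D1 too, and 4 of 6 microglial markers. In the other direction, 5 of 6 interneuron markers and all 5 markers of glutamatergic neurons were higher in D1, the latter at 491 to 940 against 167 to 557 CPM. No marker was at 0 throughout a group. Slc7a5 and Slc7a11 were higher in the class with more endothelial, mural and astrocyte signal, and Slc6a17, Slc38a1, Slc38a2 and Slc7a8 in the class with more interneuron and glutamatergic signal. The part of these cells in the class differences was not tested.

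Single libraries show the same values side by side. D1 Control replicate 1 had the highest Slc7a5 and Slc7a11 of its group, and also its highest astrocyte sum, 103 CPM against 33.4 to 43.6 CPM, and endothelial sum, 28.1 CPM. The same library had the lowest D1 neuron sum (1633 CPM) and the highest D2 neuron sum (2254 CPM) of its group. D2 Resilient replicate 5 had the lowest Slc7a5 and Slc7a11 of its group (22.4 and 3.08 CPM) and the lowest endothelial and astrocyte sums of the D2 libraries (53.3 and 43.8 CPM). It also had the highest D1 neuron sum (1710 CPM) and the lowest D2 neuron sum (4867 CPM) of the D2 libraries. D2 Susceptible replicate 1, which had few genes detected (15822), had the highest endothelial sum of all, 318 CPM. Its Slc7a5 was 22.5 CPM, near the bottom of the D2 values. These libraries are examples, and a relation over all libraries was not tested.

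**Figure D4:**
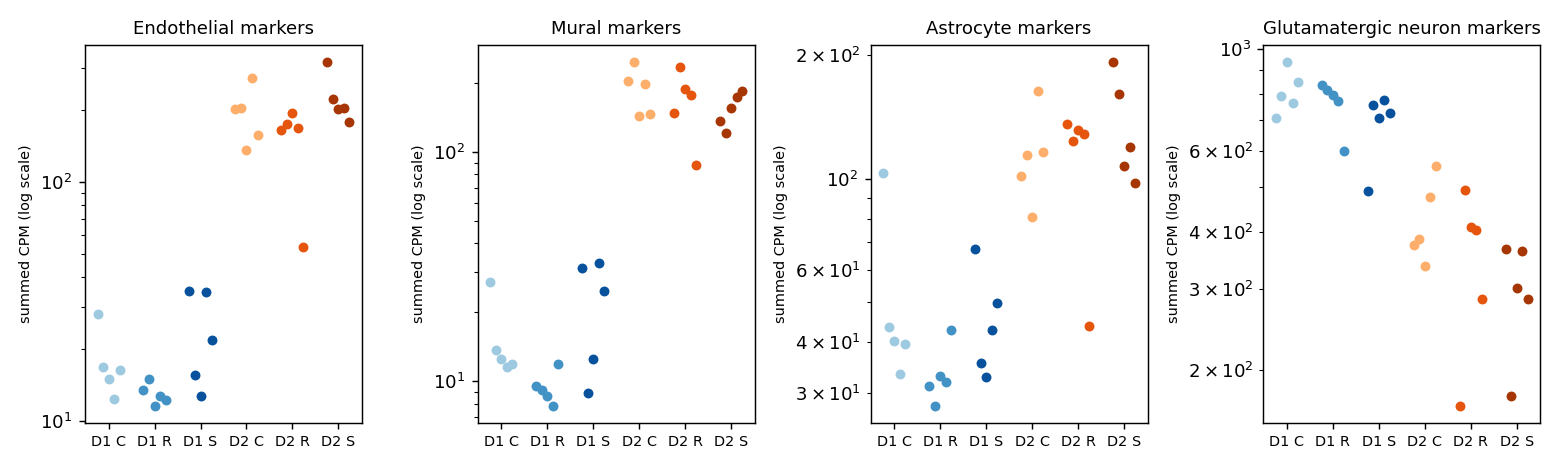
Summed CPM of endothelial (6 genes), mural (5), astrocyte (6) and glutamatergic neuron (5) markers per library and group, on log scales (C Control, R Resilient, S Susceptible). Endothelial and mural sums do not overlap between D1 and D2 libraries, and D2 Resilient replicate 5 is the lowest D2 library for endothelial, mural and astrocyte markers.

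The second question was whether stress outcome changed the transporters within a class. In D1 neurons none of the 9 genes was called in Susceptible or Resilient against Control or in Susceptible against Resilient, and 0% of all genes were called in these comparisons by edgeR. None of the 9 had an unadjusted p under 0.05 in any of the 3, and DESeq2 and voom also called 0 of them. The log2 changes of the 9 lay between -0.13 and 0.25 in Susceptible against Control and between -0.33 and 0.07 in Resilient against Control. In Susceptible against Resilient they lay between -0.11 and 0.59. The outer values on 1 side of each range were those of Slc7a11 (0.25, -0.33 and 0.59), which had 3.596 ± 1.63 CPM in D1 Control, 2.86 ± 0.57 in D1 Resilient and 4.31 ± 1.07 in D1 Susceptible (SD, n = 5 each). Slc6a15 kept within a narrow band, at 65.6 ± 4.69, 65.6 ± 3.69 and 63.5 ± 3.40 CPM.

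In D2 neurons none of the 9 was called either, against 0.00516% of all genes in Susceptible against Control, 0% in Resilient against Control and 0.0516% in Susceptible against Resilient. At an unadjusted p under 0.05 there were 3 (Slc6a17, Slc7a8 and Slc3a2), 1 (Slc6a15) and 4 (Slc6a15, Slc6a17, Slc3a2 and Slc7a11). The share of all genes at that level was 15.7%, 4.20% and 19.1%. The median change of the 9 in Susceptible was -0.20 against Control and -0.20 against Resilient, while that of all genes was -0.03 in both. The medians of the 9 were 0.04 and 0.01 without D2 Susceptible replicates 1 and 2.

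Slc6a15 had 61.7, 58.6, 61.5, 53.6 and 61.4 CPM in D2 Control and 76.6, 66.9, 65.7, 62.8 and 64.1 CPM in D2 Resilient. In D2 Susceptible it had 43.2, 52.4, 63.5, 55.9 and 65.0 CPM. All D2 Resilient libraries were above all D2 Control libraries, and 0.532% of all genes separated in that way and direction. The log2 difference was 0.18 (SE 0.087), with an unadjusted p of 0.047 by edgeR and an adjusted p of 1.00. It stayed positive in every alternative run, from 0.13 without D2 Resilient replicate 1 to 0.20, with adjusted p between 0.48 and 1.00. Susceptible against Resilient gave -0.26 (SE 0.087, adjusted p = 0.10 by edgeR). DESeq2 gave -0.25 and called it (adjusted p = 0.0497), as did the fits without D2 Susceptible replicate 3 (-0.31, adjusted p = 0.027) or replicate 5 (-0.32, adjusted p = 0.026). Without D2 Susceptible replicates 1 and 2 it was -0.13 (adjusted p = 0.97).

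The heavy chain Slc3a2 had 13.9, 37.1, 74.6, 58.4 and 61.2 CPM in D2 Susceptible. In D2 Control it had 77.1, 72.3, 70.5, 57.0 and 63.3 CPM, so only replicates 1 and 2 of the Susceptible group lay below the Control libraries. The change was -0.47 (SE 0.22, adjusted p = 0.30), and -0.08 (adjusted p = 1.00) without those 2 libraries. Against Resilient it was -0.48 (adjusted p = 0.23), and -0.09 (adjusted p = 1.00) without them. It was -0.69 (adjusted p = 0.043) without D2 Susceptible replicate 3. Slc6a17 had 152, 139, 374, 276 and 356 CPM in D2 Susceptible, and again replicates 1 and 2 were below the 257 to 408 CPM of D2 Control. Its change of -0.42 (adjusted p = 0.28) became -0.06 without them. Slc7a8 had a log2 change of -0.33 against Control (SE 0.12, adjusted p = 0.19), of -0.10 without replicates 1 and 2 and of -0.46 (adjusted p = 0.043) without replicate 5. The Slc7a11 value was 0.70 in Susceptible against Resilient (SE 0.29, adjusted p = 0.19), and 0.55 (adjusted p = 0.96) without replicates 1 and 2.

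Of the glutamine carriers, Slc38a1 had 126 ± 36.3 CPM in D2 Susceptible, 144 ± 5.88 in D2 Control and 149 ± 5.52 in D2 Resilient (SD, n = 5 each), and Slc38a2 had 39.2 ± 12.2, 36.6 ± 2.92 and 36.1 ± 3.07 CPM. Without D2 Susceptible replicates 1 and 2, the Susceptible against Control change of Slc38a1 turned from -0.20 to 0.05 and that of Slc38a2 from 0.10 to -0.22. The signs of Slc6a15, Slc7a5 and Slc1a1 turned as well, from -0.08 to 0.04, from -0.20 to 0.06 and from -0.13 to 0.12.

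**Figure D5:**
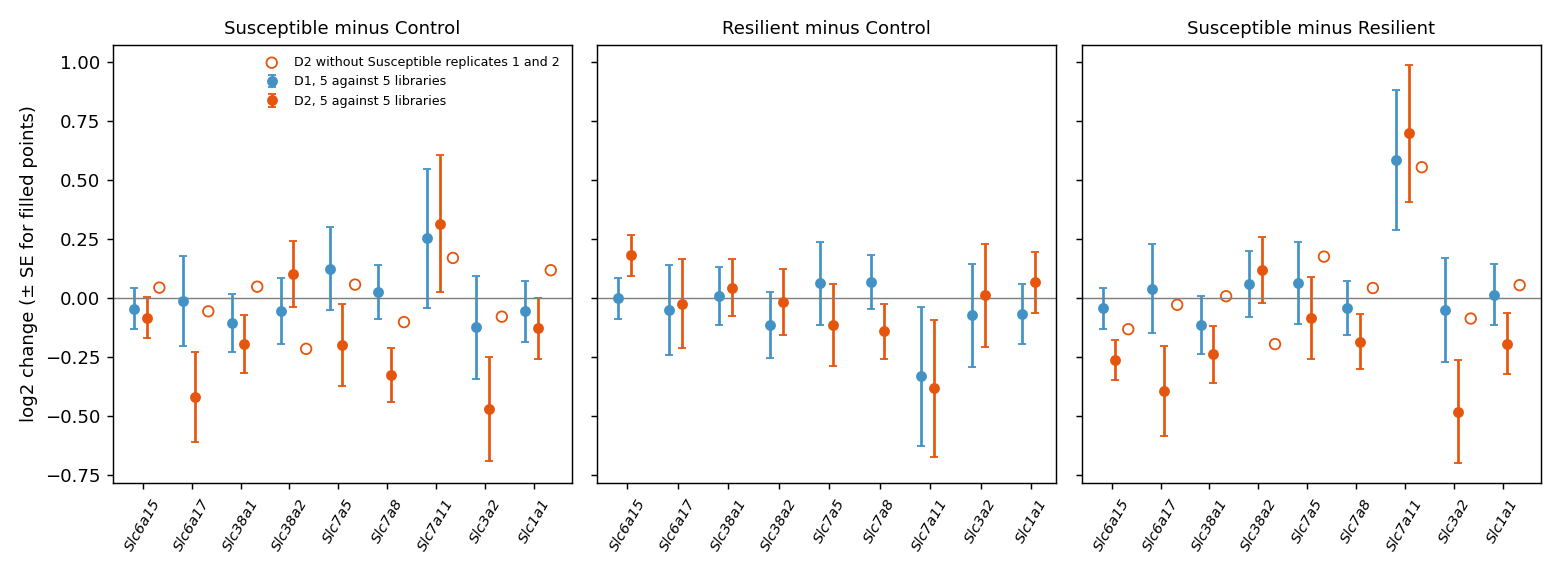
Log2 change of each gene between stress groups within D1 (blue) and D2 (orange) libraries, with the standard error (5 against 5 libraries). Open circles are D2 changes without Susceptible replicates 1 and 2, and lie between -0.22 and 0.17 in Susceptible minus Control, closer to 0 than the filled points for Slc6a17 and Slc3a2.

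Whether the change differed between the classes was tested directly, as the D1 change minus the D2 change. None of the 9 genes was called for any of the 3 stress comparisons, nor was any other gene by edgeR (0% of all genes). DESeq2 and voom called 0 of the 9. At an unadjusted p under 0.05 there was 1, Slc7a8 in Susceptible against Control, with a difference of 0.35 (SE 0.16, adjusted p = 0.64), and 7.79% of all genes were at that level. The difference was 0.13 (adjusted p = 1.00) without D2 Susceptible replicates 1 and 2. For Slc6a15 the difference was 0.04 (SE 0.12) in Susceptible against Control, -0.18 (SE 0.12) in Resilient against Control and 0.22 (SE 0.12, adjusted p = 0.47) in Susceptible against Resilient.

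The other genes of amino acid handling were followed as lists. Of 38 other amino acid transporters, 34 were tested. Slc6a5, Slc6a14, Slc36a2 and Slc43a1 were set aside by the filter. In the mean over conditions, 11 were higher in D1 and 10 lower, 61.8% of the list against 29.3% of all genes, with a median log2 difference of 0.14 against 0.00 for all genes. Higher in D1 were Slc7a14, a lysosomal member of the cationic carrier family (0.48, 123 against 88.5 CPM), Slc36a4, a proton-coupled family member (0.38), and Slc6a7, the brain proline transporter (0.69). Lower were Slc6a20a, a carrier of proline and related imino acids (-3.50, 0.47 against 5.15 CPM), the glutamine carrier Slc38a5 (-4.01, 0.18 against 2.88 CPM) and the neutral exchanger Slc1a5 (-2.64, 0.20 against 1.26 CPM). In Control 3 were higher and 6 lower in D1, 26.5% of the list against 8.30% of all genes. In Resilient 4 were higher and 6 lower, 29.4% against 6.65%, and in Susceptible 9 and 7, 47.1% against 23.9%. Control calls included Slc6a6, the taurine transporter, with 93.5 ± 6.52 CPM in D1 and 121 ± 11.6 CPM in D2 (SD, n = 5 each). In Resilient, Slc1a3, the glutamate carrier typical of astrocytes, had 14.9 ± 1.03 CPM in D1 and 67.9 ± 24.0 CPM in D2. In Susceptible, Slc36a1 had 56.0 ± 3.99 CPM in D1 and 43.0 ± 4.39 CPM in D2. The endothelial and astrocyte sums given above were lower in D1 too, and their part in these list calls was not tested.

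Of 25 genes of the amino acid response, 24 were tested (Fgf21 was not), and 5 were higher and 7 lower in D1 in the mean over conditions, 12 of 24 against 29.3% of all genes. The median difference was -0.05. Asns, which makes asparagine, was higher in D1 (0.46, 191 against 139.9 CPM, adjusted p = 7.61e-05 by edgeR), as were Vldlr (0.25) and Aldh18a1, an enzyme of proline synthesis (0.30). The serine synthesis enzymes Phgdh (-1.23) and Psat1 (-0.26) were lower, as was Nupr1 (-1.13). Asns and Vldlr were the 2 calls in Control, and Phgdh and Psat1 the 2 in Resilient. That is 8.33% of the list each time, near the 8.30% and 6.65% of all genes. In Susceptible 4 were higher and 5 lower, 37.5% against 23.9%, among the latter Psph, the last enzyme of serine synthesis (8.68 ± 0.74 against 12.04 ± 1.63 CPM). The response genes were called in both directions. Astrocyte and endothelial sums were lower in D1 as well, and their part in these calls was not tested. Among the members that the response is known to regulate, Slc38a2 was higher in D1, Slc7a5 and Slc7a11 were lower, and Slc3a2 did not pass.

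Of 30 genes of mTORC1 and amino acid sensing, all tested, 5 were higher and 6 lower in D1 in the mean, 36.7% against 29.3% of all genes, with a median difference of 0.08. Rheb, which activates mTORC1 (0.22, adjusted p = 0.00022 by edgeR), Depdc5 (0.31), a subunit of a complex that restrains it, and the Rag GTPase Rragb (0.48) were higher. Castor1, an arginine sensor (-2.69, 0.19 against 1.23 CPM), the Rag GTPase Rragd (-0.27) and Tfeb, a lysosomal transcription factor (-0.90), were lower. Rheb was the only call of the list in Control and Castor1 the only one in Resilient, 3.33% of the list against 8.30% and 6.65% of all genes. In Susceptible 7 were higher and 5 lower, 40.0% against 23.9%. The part of other cell types in the calls of this list was not tested either. No gene of the 3 lists was called in any stress comparison or in any difference of changes by edgeR.

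Finally, the genes whose levels followed each member most closely were sought, as a description over the 30 libraries after the group means were removed. Slc3a2 was closest to Nop2 (Pearson r = 0.98), Slc6a17 to Ap1b1 (0.98) and Slc38a1 to Ube2j1 (0.94). Slc1a1 was closest to Eif4a-ps4 (0.94), Slc6a15 to Acat1 (0.88) and Stau2 (0.87), and Slc7a8 to Mical2 (0.86). Slc7a5 was closest to Foxo6 (0.86), Slc38a2 to Tgs1 (0.86) and Slc7a11 to Cyth4 (0.72). Over the 28 libraries without D2 Susceptible replicates 1 and 2 the closest genes were others, Cul3 for Slc6a15 (0.83), Syngr1 for Slc6a17 (0.95) and Hgsnat for Slc3a2 (0.85) among them. The exception was Foxo6, which stayed among the closest 2 to Slc7a5 (0.79). The points share libraries and depth, so these values rank genes and carry no test.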

How the data were processed

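Members, gene lists and tests were chosen with earlier results of these data known. Polyribosome RNA from 30 libraries (10 ng each, SMART-Seq v4, RNA integrity above 8, per the labels' protocols) was measured. The deposited counts are whole reads per gene, made by the authors with HISAT2 and HTSeq on GRCm38/mm10, per the submitters' processing notes. For versions, annotation release and strand, nothing is given in the sources used here. The 5 summary lines (10.1% to 53.3% of reads) stayed out of library sizes. Symbols, coordinates and exon lengths came from GENCODE release M21.

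Sample titles gave each library's group and replicate number, and the labels call the libraries separate pools of mice. Genes passed filterByExpr (minimum count 10, minimum total 15), which set 35967 aside. After TMM scaling, edgeR 4.0.16 (R 4.3.3) fitted 1 model of 6 groups with its robust quasi-likelihood F test and Benjamini-Hochberg adjustment over 19368 genes in each of 13 comparisons (threshold 0.05). The scripts were tested on simulated data. CPM used TMM-scaled library sizes, and FPKM divided it by merged exon length. Likeness was computed on log2 CPM (prior count 2). Each list named up to 3 genes per direction and comparison with the smallest adjusted p, and all 9 members were named. Alternatives were DESeq2 1.42.0 (and its size factors), no filter, only the groups compared, a replicate block, voom with quality weights (limma 3.58.1), Gm42418 left out, libraries that stood apart left out, and each library left out in turn. The likeness without D2 Susceptible replicates 1 and 2 was added after the data were seen. A count of 0 in a library allows up to 3 counts, or 0.0430 to 0.304 CPM, for counting error only. Male and human data were not analysed here. Figures used matplotlib 3.10.9 and pandas 2.3.3.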

Additional observations from a re-analysis of the deposited data

Results flagged for a closer look

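In 5 of the 54 groups of 5 libraries checked (9 genes in 6 groups), 1 library lay far from the other 4, as judged by the gap to its nearest neighbour over the range of the group. Chance flags about 1 in 20 groups. D1 Control replicate 1 was high for both Slc7a5 (21.9 CPM, next 19.0) and Slc7a11 (6.47 CPM, next 3.37). D2 Control replicate 4 was low for both Slc38a1 (134 CPM, next 145) and Slc1a1 (98.4 CPM, next 119.9). D1 Resilient replicate 5 was low for Slc6a17 (342 CPM, next 474).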

How the results depend on the processing

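The 6 genes called between the classes over all conditions were called under every alternative, and 6 or 7 were called when each library was left out in turn, the added gene being Slc6a15. In Control, 3 genes were called, 5 when only the groups compared were fitted, 6 by voom with quality weights, and 1 to 4 without 1 library. In Resilient, 2 were called, 5 and 6 under the same alternatives, 4 without the 4 libraries that stood apart, and 0 to 3 without 1 library. In Susceptible, 5 were called and 0 when only the groups compared were fitted. In D2 neurons, Susceptible against Resilient gave 0 calls, 1 by DESeq2 and 0 to 2 without 1 library, and Susceptible against Control gave 0 to 1 without 1 library. The causes of these moves were not tested.

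Over all genes, calls between the classes over the conditions were 5679, 5322 to 7711 under the alternatives and 5161 to 6622 without 1 library. In D2 Susceptible against Control they were 1, 255 by DESeq2 and 0 to 828 without 1 library. For Susceptible against Resilient in D2 they were 10, 976 by DESeq2 and 0 to 1964 without 1 library, and for Control D1 against D2 they were 1608, 5511 by voom and 981 to 1794 without 1 library. In Resilient they were 1288 and 3412 by voom, and in Susceptible 4621 and 915 with only the groups compared. That last setting gave 2696 in Control and 2184 in Resilient. For D1 Resilient against Control they were 0 and 180 by voom. The differences of changes had 0. Under other settings the most were 5 (DESeq2) in Susceptible against Control and 160 (voom) in Resilient against Control. In Susceptible against Resilient they were 47 by DESeq2 and 156 without D2 Susceptible replicate 3. With the replicate number as a block (replicate block), the members called stayed at 3, 2, 5 and 6 in the class comparisons and 0 elsewhere, and all genes called were 1497 in Control and 4 in D2 Susceptible against Control. Same-numbered libraries did not deviate together over all genes (correlations of -0.08 to 0.08 and 0 of 5 pairs over 0.1 in each of 9 pairings). Such a check cannot show whether a shared batch moved a smaller number of genes.

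With the longest transcript as length, median FPKM was 17.5 for Slc6a15, 62.0 for Slc6a17, 16.1 for Slc7a8, 23.7 for Slc3a2, 22.8 for Slc38a1, 6.54 for Slc38a2 and 31.7 for Slc1a1, all from dividing by fewer bases.

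The changes listed here that turned sign were uncalled both ways, and all are log2 values. Signs also turned in comparisons not listed here. These were 4 genes in each of the 3 D1 stress comparisons and 4 in D2 Resilient against Control. In the differences of changes they were 6 in Susceptible against Control, 3 in Resilient against Control and 6 in Susceptible against Resilient. In D2 Susceptible against Control, voom gave 0.051 for Slc6a15, 0.049 for Slc38a1, -0.16 for Slc38a2 and 0.070 for Slc1a1. Without D2 Susceptible replicates 1 and 2 the values were 0.044 for Slc6a15, 0.056 for Slc7a5, 0.048 for Slc38a1, -0.22 for Slc38a2 and 0.12 for Slc1a1. Without the 4 libraries they were 0.046, 0.059, 0.050, -0.21 and 0.12. Slc38a2 ranged from -0.10 to 0.17 without 1 library. In D2 Susceptible against Resilient, voom gave 0.016 for Slc7a5, 0.043 for Slc7a8, 0.042 for Slc38a1, -0.18 for Slc38a2 and 0.088 for Slc1a1. Without D2 Susceptible replicates 1 and 2 these were 0.18, 0.042, 0.0071, -0.20 and 0.054, and without the 4 libraries 0.060, 0.015, 0.014, -0.22 and 0.068. Without 1 library Slc7a5 ranged from -0.23 to 0.031 and Slc38a2 from -0.085 to 0.19. Between the classes, Slc3a2 had -0.053 in Control by voom and -0.021 to 0.088 without 1 library, and -0.0037 in Susceptible without D2 Susceptible replicates 1 and 2. Over the conditions Slc3a2 had -0.026 by voom, -0.0028 without those 2 libraries and -0.013 without the 4. Slc1a1 in Susceptible had -0.13 by voom, -0.18 without the 2, -0.19 without the 4, and -0.063 to 0.18 without 1 library. Without 1 library Slc1a1 ranged from -0.078 to 0.016 in Control and from -0.072 to 0.0083 over the conditions, and Slc6a15 in Resilient from -0.048 to 0.015. Depth limits Slc7a11 most, at 49 to 759 counts per library.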
